A study of Mus musculus with 2 samples.

Results

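The sites described here are the sole sites of single-site genes: C-to-U editing sites whose gene name occurs once in the deposited site list and whose editing level lies under 20%. They numbered 3266 of the 17755 sites in the list, and their genes made up 47.1% of the 6929 genes with a site. Both the number of sites per gene and the editing level chose the members, so these values are given as descriptions with no test. The rest of the list was 14347 sites in 3521 genes with 2 or more sites, called multi-site genes below, and 142 single-site genes at 20% or above.

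The study sorted neuronal nuclei from the cortex of mice to map N6-methyladenosine (m6A) in their RNA. All libraries belonged to 1 group: nuclei stained for NeuN, genotype APOBEC1-YTH, with no library of another genotype, age or treatment used here. The mice received tamoxifen at 20 mg/kg every 24 hours for 5 days from an age of 10 weeks, cortex was collected 7 days after the final dose, and nuclei were fixed in 50% ethanol. There were 2 libraries, which the authors merged into 1 list with 1 editing level per site. The labels give neither the promoter that drives the transgene nor whether a library came from 1 animal. They name polyA RNA in one field and a stranded total RNA kit in the protocol. The list holds neither coverage nor a value per library. Depth is therefore unknown, and a difference between sites cannot be set against replicate error. Rbfox3, which encodes NeuN, had 0 sites in the list.

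m6A is placed on nascent transcripts by a methyltransferase complex around Mettl3 and Mettl14, at a short sequence built around an AC pair whose A is modified. Proteins with a YTH domain bind the modified base. APOBEC1-YTH joins such a domain to a cytidine deaminase, which converts cytidines near the bound m6A to uridines, so the edited base stands beside the mark and is read as C-to-T in cDNA. In mature mRNA m6A is known to be dense in long internal exons and near stop codons, and many transcripts carry several marks.

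The smallest genes among the members were microRNA genes, and they show what a site is at the level of single bases. Of the 6 microRNA genes with a site, 5 had a sole site under 20%. Their precursor sequences, from RefSeq (GRCm38.p6, the assembly mm10 names), are given 5′ to 3′ around the edited base, which is in capitals:
Mir23a (chr8:84208572, plus strand, 11.8% edited): aaucacauugCcagggauuuc
Mir29c (chr1:195037583, plus strand, 1.64%): uccugguguuCagagucuguu
Mir762 (chr7:127708506, plus strand, 2.47%): cgggucucggCccgcacgguc
Mirlet7e (chr17:17830398, plus strand, 9.52%): gaggaagacaCccgaggagau
Mir6363 (chr16:50727245, plus strand, 6.25%): cuaccugccuC
The edited base was base 55 of the 75-base hairpin of Mir23a, base 37 of 88 in Mir29c, base 20 of 76 in Mir762, base 47 of 93 in Mirlet7e and the last of 114 bases in Mir6363. In Mir23a and Mir29c it fell in a mature microRNA, and these mature sequences are printed with the seed (bases 2 to 8, which pair with targets) in capitals:
mmu-miR-23a-3p: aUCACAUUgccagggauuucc
mmu-miR-29c-5p: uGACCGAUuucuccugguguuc
The edited base was base 10 of mmu-miR-23a-3p and base 22, the last, of mmu-miR-29c-5p, so that neither seed held it. The 8 mature microRNAs of these 5 genes had 8 different seeds. Each site except that of Mir23a also lay within the span of a larger gene: A330023F24Rik around Mir29c, Bcl7c around Mir762, Spaca6 around Mirlet7e and Dubr around Mir6363. Reads of the hairpin and of the larger transcript were not told apart.

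For other members, genomic sequence was at hand only within the 300 bases around annotated gene starts (250 before and 50 after, RefSeq, GRCm38.p6). A base could be read for 56 sole sites on the strand of the window, and it was C at all 56. It was G at all 38 that lay on the opposite strand. The following 21-base stretches show sites beside a start in genes of high level or of the lists described below, with the edited base in capitals:
Tbca (chr13:94788934, plus strand, 18.4%): ctccttcctgCggcgccttag
Timm50 (chr7:28312038, minus strand, 16.7%): gtggcgtcagCgcaagatggc
Rpl10a (chr17:28328583, plus strand, 10.5%): agcgctctgcCttctttccgg
Rpsa (chr9:120127794, plus strand, 5.41%): cgtcctttcgCgctacccggg
Gabra2 (chr5:71095812, minus strand, 8.70%): acgccttcgcCgcctactcct
Tbca encodes a tubulin-folding cofactor, Timm50 a subunit of the mitochondrial import channel, Rpl10a and Rpsa ribosomal proteins and Gabra2 a GABA-A receptor subunit. None of these 5 sites had an A directly before the edited base.

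Across the 41 sole sites with 10 bases known on either side, the base before the edited C was G at 20 sites, C at 13, T at 5 and A at 3. The share with A was 7.32% (exact 95% interval 1.54% to 19.9%). Among 87 sites of multi-site genes in the same windows it was 16.1%, and A stands before 18.2% of all C in the windows. The m6A consensus was searched on the transcribed strand as A, G or T, then A or G, then AC, then A, C or T. It stood somewhere in the 21 bases at 7 of 41 sole sites (17.1%), at 19.5% of the multi-site gene sites and around 25.5% of all C in the windows. It ended directly before the edited C at 0 of 41 and 0 of 87 sites, against 1.75% of all C. The edited C was the C of the consensus at 1 of 41 sole sites (2.44%), at 2.30% of the other sites and at 6.74% of all C. These are counts of letters in windows that straddle gene starts, which hold a small part of all members.

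A shared stretch was seen in 3 of these contexts after the sequences had been read: the edited base was the first letter of CAGGT, in capitals here:
Rsrc1 (chr3:66985804, plus strand, 1%): aaggtcgagcCAGGTgatgcc
Mtch1 (chr17:29347469, minus strand, 1.77%): gctgctgatcCAGGTggggcg
Ntmt1 (chr2:30808081, plus strand, 7.69%): agccccgaccCAGGTaagtat
Rsrc1 encodes a splicing-related protein rich in arginine and serine, Mtch1 a protein of the outer mitochondrial membrane and Ntmt1 an N-terminal methyltransferase. CAGGT, searched on the transcribed strand, began at the edited base in 3 of 41 sole sites (7.32%, 1.54% to 19.9%) and in 0 of 87 sites of multi-site genes. It begins at 0.481% of all C in the windows. The stretch was chosen from these sequences, so its count is a description.

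Sole sites were listed at higher editing levels than most sites of multi-site genes. Their median was 5.71% (order-statistic 95% interval 5.56% to 5.88%), with quartiles of 3.17% and 10%, a lowest value of 1% and a highest of 19.2%. Sites of multi-site genes under 20% had a median of 3.17%, with quartiles of 1.85% and 5.71%, so the upper quartile of the one group equals the median of the other and the groups overlap over almost their whole range. The difference depended on which site of a multi-site gene was taken. The highest site of each such gene had a median of 6.90%, or 6.67% over the 3324 genes whose highest site was under 20%. The lowest site of each gene had a median of 2.08%, with the sole sites between. Levels fell with the number of sites in the gene, from a median of 4.76% in genes with 2 sites to 3.85% with 3, 3.57% with 4, 2.82% with 5 to 9 and 2.44% with 10 or more.

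**Figure D1:**
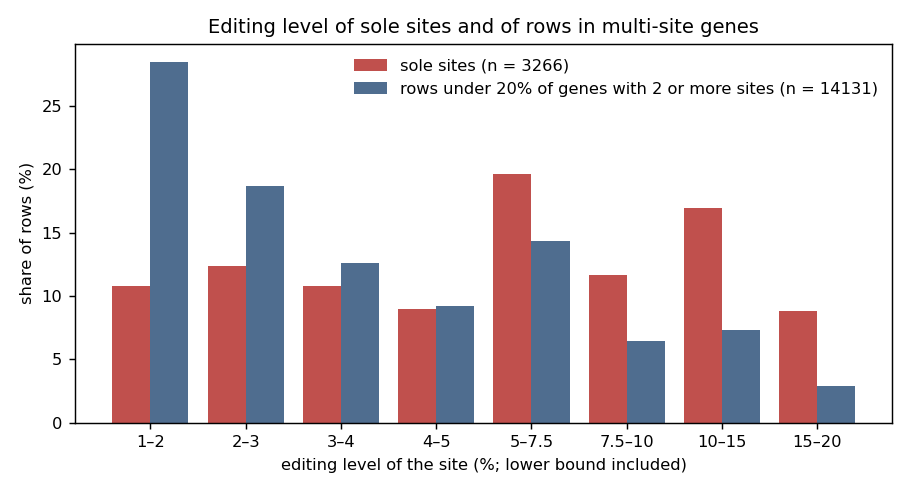
Share of sites (vertical axis, percent) in each class of editing level (horizontal axis, percent) for the 3266 sole sites (red) and the 14131 sites under 20% of multi-site genes (blue). The blue bars are highest at 1% to 2%, with 28.5% of sites, where the red bar stands at 10.8%, and the red bars are the higher ones in each class from 5% upwards.

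The plot of editing levels shows the same shift as counts. Among sole sites 843 (25.8%, exact 95% interval 24.3% to 27.3%) were edited at 10% or more, against 10.2% of the sites under 20% in multi-site genes. Under 2% were 352 sole sites (10.8%, 9.73% to 11.9%), against 28.5%. Read the other way, sole sites made up 8.05% of all such sites at 1% to 2% and 41.5% at 15% to 20%. Many sole sites shared a few values. The 10 most frequent levels (16.7%, 18.2%, 13.3%, 12.5%, 10.5%, 11.8%, 14.3%, 9.52%, 15.4% and 11.1%) together held 824 sole sites (25.2%) and 8.93% of the sites under 20% in multi-site genes. The commonest, 16.7%, was the level of 116 sole sites. Coverage per site is not in the list, and its part in these shared values was not tested.

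The highest levels belonged to genes of unrelated function. Agap3, an Arf GTPase-activating protein found at synapses, stood at 19.2%, with its site 2076 bases before the 3′ end of the gene span (chr5:24452177-24502047). Lpcat3, a lysophospholipid acyltransferase, and Sfrp1, a secreted Wnt antagonist, both stood at 18.8%, with sites 754 and 201 bases before the 3′ end. Tbca followed at 18.4%, with its site 14 bases after the start. The uncharacterised genes 4631405J19Rik and 4632404M16Rik stood at 18.2%, a level that 88 sole sites shared. At the low end were Ddit3, a stress-induced transcription factor, Nom1, a nucleolar protein, and Rsrc1 at 1%, then Ckb, the brain creatine kinase, the kinase gene Clk3 and Wdr70 at 1.01%. The limit of 20% cut through a frequent value: 83 of the 142 single-site genes left out stood at exactly 20%, among them 1700008J07Rik, 2900064K03Rik and 3110006O06Rik, and so did 114 sites of multi-site genes.

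By class of gene, 2746 sole-site genes (84.1%) were protein-coding and 151 (4.62%) were long noncoding RNA genes. Among multi-site genes the shares were 95.2% and 1.90%. Of all 229 long noncoding RNA genes with a site, 151 had a sole site (65.9%, exact 95% interval 59.4% to 72.1%), and of 6197 protein-coding genes 2746 did (44.3%). Measured against every annotated protein-coding gene (21900), 12.5% had a sole site under 20%. Names that matched no RefSeq gene made up 10.7% of sole-site genes (349, of which 336 were Gm or Rik names, given to predicted or uncharacterised loci) and 2.64% of multi-site genes. The median level was 5.56% for protein-coding members, 7.14% for long noncoding RNAs and 7.69% for unmatched names. Named long noncoding RNAs with the highest levels were AU020206 and Dancr at 16.7%, Zeb2os, antisense to the transcription factor gene Zeb2, at 15.4%, Etohd2 at 14.3% and Snhg6, a snoRNA host gene, at 13.3%. Dlx6os1, transcribed within the Dlx5 and Dlx6 locus of inhibitory neurons, stood at 9.09%.

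Sole-site genes were shorter than multi-site genes. The median span from the first to the last annotated base, introns included, was 23.5 kb (22.4 to 24.8 kb) for 2917 matched sole-site genes. It was 31.6 kb for genes with 2 sites, 44.1 kb for all multi-site genes and 74.9 kb for genes with 5 or more sites. The median over every annotated protein-coding gene was 17.1 kb, so sole-site genes lay between the annotation and the multi-site genes. In 10 groups of equal size by span, the share of genes with a sole site was 63.6% in the shortest group and 31.6% in the longest, with the lowest share, 29.6%, in the group before it. The sole sites' own median level moved little across these groups, from 5.07% to 6.16%, and that of multi-site genes stayed between 3.12% and 3.45%. RNA abundance is not in the list, so its part in the number of sites per gene was not tested.

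**Figure D2:**
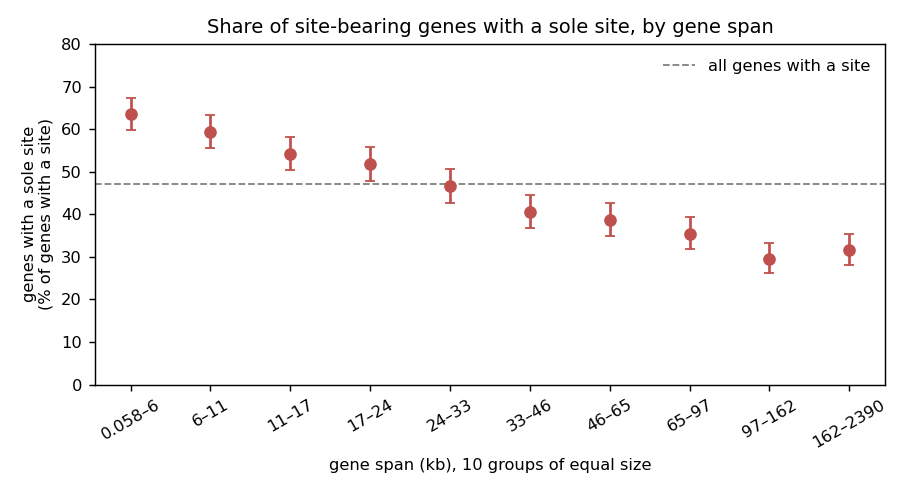
Share of genes with a site whose only site is under 20% (vertical axis, percent, exact 95% intervals) in 10 groups of equal size ordered by gene span (horizontal axis, kb). The share falls from 63.6% in the shortest group to 29.6% and 31.6% in the last groups, and the dashed line is the share among all genes with a site, 47.1%.

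Some of the longest genes of the genome nevertheless had a single site. Dmd, the dystrophin gene, spans 2390 kb and was edited at 5.56%. Cntnap2, a neurexin-family adhesion gene, spans 2241 kb (13.3%), and Macrod2, which encodes a macrodomain hydrolase, 1998 kb (2.13%). Dlg2, a postsynaptic scaffold, spans 1973 kb (11.8%) and the cadherin gene Pcdh15 1554 kb (16.7%). Their sites stood at different places. Those of Dmd, Cntnap2 and Pcdh15 lay 1433, 1647 and 324 kb before the 3′ end, that of Dlg2 73.5 kb before it, and that of Macrod2 177 bases after an annotated start.

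The gene functions were compared as the share of a list's site-bearing genes that had a sole site, read against 47.1% of all 6929 genes with a site. Of 51 lists, 16 lay above that share, all among the 36 gene families, and 0 of 8 cell type lists and 0 of 7 pathway lists did. When only protein-coding genes were counted, where the share over all genes is 44.3%, 25 lists lay above it: 21 families, 2 cell type lists (excitatory and oligodendrocyte markers) and 2 pathway lists (autophagy and DNA repair). When sites under 2% were dropped before counting, 41 of the 51 lists stayed on their side of the share of all genes. The lists overlap, differ in span and were chosen with results of these data known. Intervals cover counting error only, and nothing is claimed of a list from them. Together the lists held 1221 of the 3266 members (37.4%).

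**Figure D3:**
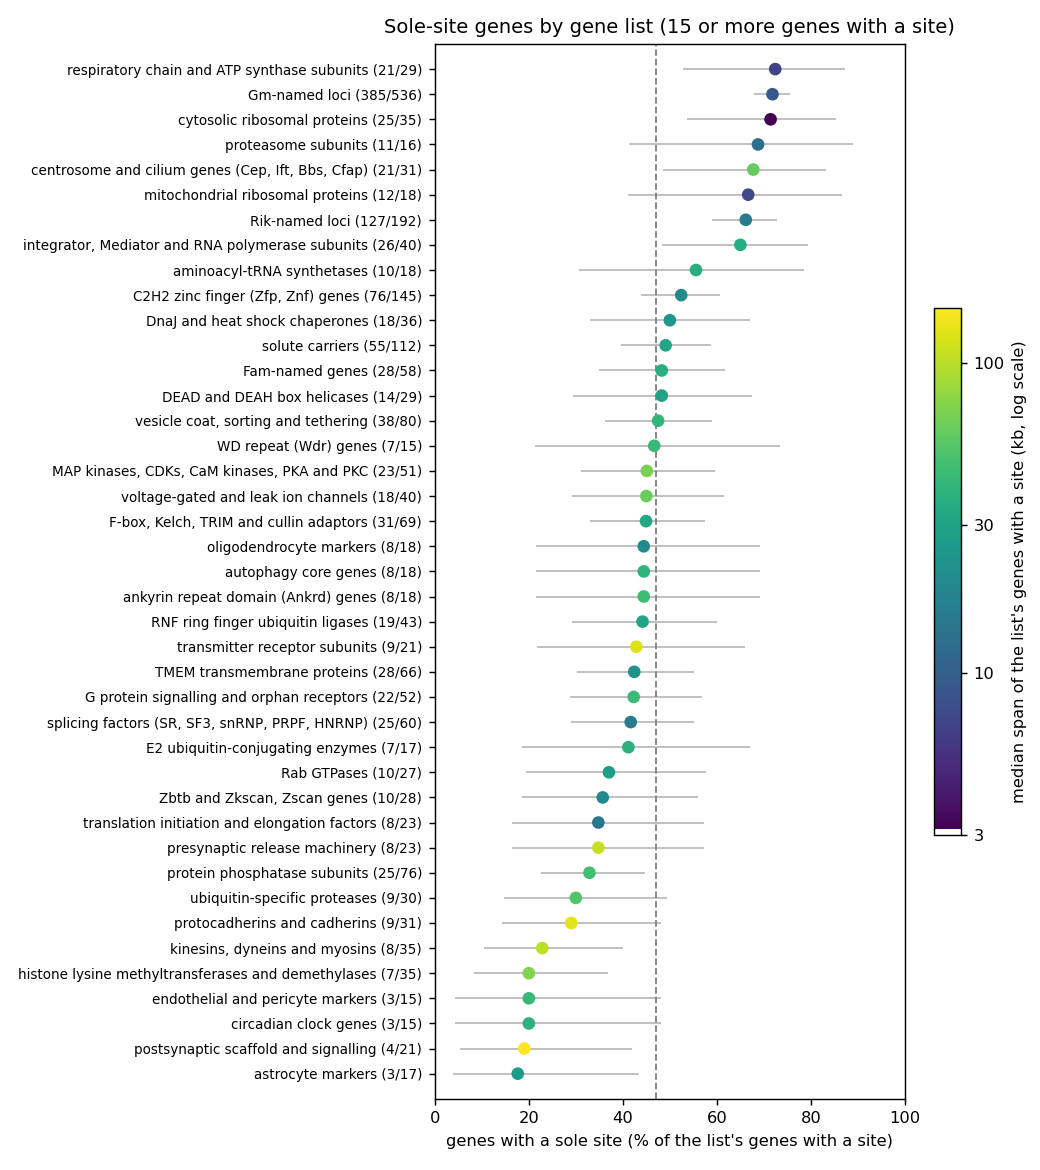
Share of each gene list's site-bearing genes that had a sole site under 20% (horizontal axis, percent, exact 95% intervals), for lists with 15 or more such genes, with the counts behind each share in brackets and the median span of these genes as colour. Respiratory chain subunits (72.4%) and cytosolic ribosomal proteins (71.4%), in dark colours for short spans, stand near the top, histone lysine methyltransferases and demethylases (20.0%) near the bottom, and the dashed line marks 47.1%.

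Mitochondrial and ribosomal families were among the highest in the plot of gene lists. Of 29 respiratory chain and ATP synthase genes with a site, 21 had a sole site (72.4%, 52.8% to 87.3%). The highest were Cox8a, a cytochrome c oxidase subunit, at 18.2%, the complex I gene Ndufb2 at 14.3%, Cox7b at 9.09% and the ATP synthase gene Atp5k at 8.33%, while the median of the 21 was 3.12%. Of the 20 of these sites inside the span, 17 lay in its last 5 kb, in genes with a median span of 6751 bases, of which that window covers most. The share in the last 5 kb was 52.6% over all sole sites and 72.2% over those in the shortest genes, up to 19.1 kb. Cytosolic ribosomal proteins had a sole site in 25 of 35 genes (71.4%, 53.7% to 85.4%), at levels from 1.15% to 18.2% with a median of 2.44%. Rps15a at 18.2%, Rpl28 at 13.3% and Rpl10a at 10.5% were the highest. Ribosomal protein genes have many near-identical processed copies, so reads of a gene and its copies may not have been separated. Of mitochondrial ribosomal protein genes 12 of 18 had a sole site (66.7%), led by Mrps17 at 16.7% and Mrps27 at 13.3%. The import machinery had 6 of 8, with Timm50 at 16.7%, Timm22 at 14.3% and the receptor gene Tomm70a at 11.1%.

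A further 4 lists above the share of all genes were these. Proteasome genes (Psm names, which include assembly and regulatory factors) had a sole site in 11 of 16 (68.8%, 41.3% to 89.0%), with the chaperone gene Psmg2 at 16.7%, the inhibitor gene Psmf1 at 15.4% and the immunoproteasome gene Psmb10 at 12.5%. Centrosome and cilium genes had 21 of 31 (67.7%, 48.6% to 83.3%), with Cep78 at 12.5%, Cep295 at 11.1% and the intraflagellar transport genes Ift122 and Ift20 at 10.5% and 9.52%. In contrast to the mitochondrial families, these 31 genes were long, with a median span of 61.7 kb. Integrator, Mediator and RNA polymerase genes had 26 of 40 (65.0%, 48.3% to 79.4%), among them Polr3gl of RNA polymerase III at 16.7%, Ints7 and the TFIID gene Taf4b at 14.3% and Ints5 at 13.3%. Aminoacyl-tRNA synthetases, which charge tRNAs, had 10 of 18 (55.6%). The 4 highest of these were Yars2 at 9.52%, Cars2 at 8%, Hars2 at 7.14% and Fars2 at 3.33%, all of the mitochondrial set.

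Large families lay on both sides of the 47.1% of all genes. Gm-named loci had a sole site in 385 of 536 (71.8%) and Rik-named loci in 127 of 192 (66.1%), most Gm names being without a RefSeq match. C2H2 zinc finger genes (Zfp and Znf names, mostly transcriptional repressors) had a sole site in 76 of 145 (52.4%), with Zfp141, Zfp354a and Zfp729a at 18.2%. Solute carriers had 55 of 112 (49.1%), among them the sodium and calcium exchanger Slc24a4 and the mitochondrial carrier Slc25a11 at 16.7% and Slc12a5, the neuronal chloride exporter KCC2, at 15.4%. DnaJ and heat shock chaperones, a smaller family, had 18 of 36 (50.0%), with Hspb6 at 18.2% and Hspa1l at 16.7%. Genes of vesicle coats, sorting and tethering had 38 of 80 (47.5%), with the sorting nexin Snx24 at 18.2% and the AP-3 adaptor gene Ap3m2 at 16.7%. Under the share of all genes were F-box, Kelch, TRIM and cullin adaptors at 31 of 69 (44.9%) and TMEM genes at 28 of 66 (42.4%). Protein phosphatase subunits, at 25 of 76 (32.9%), and splicing factors, at 25 of 60 (41.7%), were under it too.

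Among the 36 families, motor proteins and those that act on chromatin were among the lowest. Histone lysine methyltransferases and demethylases had 7 of 35 (20.0%, 8.44% to 36.9%), with Kdm5a, an H3K4 demethylase, at 12.5%. This list follows gene symbols, so not every member need be such an enzyme. Its highest sole site was that of Prdm1, a transcriptional repressor, at 13.3%. Motor proteins had 8 of 35 (22.9%, 10.4% to 40.1%), with Kif26a at 11.1%, Kif3b of the kinesin-2 motor at 8.57% and Myo1c at 3.77%. Cadherins and protocadherins had 9 of 31 (29.0%), with Cdh12 at 18.2%, ubiquitin-specific proteases 9 of 30 (30.0%), with Usp42 at 11.1%, and protein phosphatase subunits 25 of 76 (32.9%), with Ppp1r35 at 16.7% and the MAP kinase phosphatase Dusp16 at 15%.

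Splicing factors, at 25 of 60 (41.7%), and translation initiation and elongation factors, at 8 of 23 (34.8%), lay under the share of all genes. Both changed side when sites under 2% were dropped before counting. Splicing factors then stood at 55.3% and translation factors at 66.7%, against 52.3% of all genes.

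Neuronal signalling genes were near or under the share of all genes. Voltage-gated and leak ion channels had a sole site in 18 of 40 genes (45.0%), at a median level of 8.52%, against 2.86% at the sites of the list's multi-site genes. Cacna1b, the N-type calcium channel, and the potassium channel genes Kcnh7 and Kcnq5 stood at 16.7%. Transmitter receptor subunits had 9 of 21 (42.9%) at a median of 10%, with the adrenergic receptor gene Adra2a at 18.2%, the metabotropic glutamate receptor gene Grm7 at 14.3% and the AMPA receptor gene Gria4 at 13.3%. Presynaptic release genes had 8 of 23 (34.8%), from the calcium sensor Syt2 at 18.2% and the vesicle protein Sv2b at 16.7% down to the SNARE protein gene Snap25 at 1.82%. Of the postsynaptic list 4 of 21 were members: Dlg2 at 11.8%, Shank2 at 11.1%, Nlgn3 at 2.25% and Dlg4, which encodes PSD-95, at 1.15%. The immediate early genes Npas4 at 18.2%, Nr4a1 at 4.55% and Btg2 at 2.67% had a sole site, 3 of the 8 in that list with a site (37.5%). When sites under 2% were dropped before counting, ion channels (52.6%) and receptor subunits (52.4%) lay just above the 52.3% of all genes. The presynaptic, postsynaptic and immediate early lists stayed under it. Among protein-coding genes only, ion channels (45.0%) also lay above the share of all genes, 44.3%.

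The m6A machinery itself had a sole site in 4 of 12 genes with a site (33.3%, 9.92% to 65.1%), against 47.1% of all genes. These 4 were the reader and helicase Ythdc2 at 7.41%, the methyltransferase Mettl16 at 4.26% and the demethylases Alkbh5 at 2.78% and Fto at 1.68%. Autophagy genes had 8 of 18 (44.4%), near the share of all genes. Among them were Pik3c3, the class III phosphoinositide kinase, at 12.5% and each of Atg4a, Atg4b, Atg4c and Atg4d between 2.63% and 7.41%. DNA repair genes had 5 of 11 (45.5%), likewise near that share, with Pms2 at 11.8% the highest. Circadian clock genes had 3 of 15 (20.0%, 4.33% to 48.1%), namely Bhlhe41 at 4.26%, Bhlhe40 at 3.23% and Clock at 2.67%.

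Marker genes of cell types had sole sites in each of the 8 lists. Of 59 genes in 3 neuronal lists 29 had a site, and 12 of these 29 had a sole site (41.4%, 23.5% to 61.1%), at a median level of 5.97%. Of 90 genes in 5 glial and vascular lists 67 had a site, and 17 of these 67 had a sole site (25.4%, 15.5% to 37.5%), at a median of 1.98%. Any listed site was thus more frequent among the glial and vascular markers than among the neuronal ones. The 2 intervals overlap, and single lists departed from the pooled order: oligodendrocyte markers had 8 of 18 (44.4%), against 5 of 11 excitatory (45.5%) and 4 of 11 pan-neuronal markers (36.4%), and the median of the 2 oligodendrocyte precursor members was above that of each neuronal list. Neuronal members ranged from 1.82% to 18.2%. They included Lamp5 at 18.2% and Cnr1, the cannabinoid receptor, at 11.8% among inhibitory markers, Sv2b at 16.7% and the vesicular glutamate transporter Slc17a7 at 6.25% among excitatory ones, and Thy1 at 6.90% and Eno2 at 5.88% among pan-neuronal ones. Glial and vascular members ranged from 1.10% to 15.4%. Low levels were listed for the oligodendrocyte markers Mbp at 1.59%, Cnp and Cldn11 at 1.32% and Trf at 1.20%. Also low were Ntsr2 at 1.10% and Aldh1l1 at 1.98% of astrocytes and Egfl7 at 1.52% and Vtn at 1.29% of vessels. The glial and vascular members above the neuronal median were Vcan at 15.4% and Gpr17 at 8.70% of oligodendrocyte precursors, Opalin of oligodendrocytes at 14.3%, the endothelial gene Vwf at 9.68% and Cldn10 of astrocytes at 7.14%. Aspa and Ugt8a of oligodendrocytes stood at 5.88% and 3.92%, Siglech of microglia at 3.08% and Enpp2 at 1.72%. Sole sites in nuclei sorted for NeuN thus included markers of non-neuronal cells, and the number of such nuclei in the sort was not measured.

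Within lists the levels of sole sites were mostly above those of the same list's multi-site genes. Among 40 lists with 5 or more sites of each kind, the sole median was higher in 35 and lower in 5. The lists are overlapping parts of sites whose pooled medians were 5.71% and 3.23%, and the level chose the members. This count is thus a description and adds no support to the pooled difference. Sites of multi-site genes at 20% or above were kept in it. The 5 were cytosolic ribosomal proteins (2.44% against 2.90%), E2 ubiquitin-conjugating enzymes (2.22% against 4.26%), aminoacyl-tRNA synthetases (2.75% against 3.58%), oligodendrocyte markers (1.66% against 1.85%) and DNA repair genes (4.76% against 5.41%).

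The place of a sole site in its gene was measured as the distance to the ends of the span, since exons, introns and UTRs were not determined here. Of 2854 sole sites inside a matched span, 1500 lay in its last 5 kb (52.6%, exact 95% interval 50.7% to 54.4%), against 49.0% of the sites of multi-site genes. This order turned when genes of like span were compared. In the shortest of 3 equal groups by span (up to 19.1 kb) the shares were 72.2% and 77.1%, in the middle group 43.8% and 52.5%, and in the longest group (from 57.5 kb) 30.5% and 35.9%. Over these groups, weighted by the sole sites, the share of sole sites was 6.24 percentage points lower, where the pooled difference was 3.54 points higher. Against the most edited site of each multi-site gene, the share of sole sites in the last 5 kb was 5.83 points lower.

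At the 5′ end the order was the same in every span group. The first 1 kb of the span held 414 sole sites (14.5%, 13.2% to 15.9%), against 6.62% of the sites of multi-site genes. From short to long genes, the shares were 20.9% against 11.4%, 10.8% against 6.54% and 8.44% against 4.82%. In genes of 20 kb or more they were 9.69% and 5.52%. Among multi-site genes the share fell with the number of sites, from 11.2% in genes with 2 sites to 5.12% with 5 to 9 and 2.75% with 10 or more. Sole sites stood at one end of this order, which was not matched for span. Median span rose from 31.6 kb in genes with 2 sites to 87.7 kb with 10 or more. A site was counted once, whereas a multi-site gene contributed each of its sites.

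**Figure D4:**
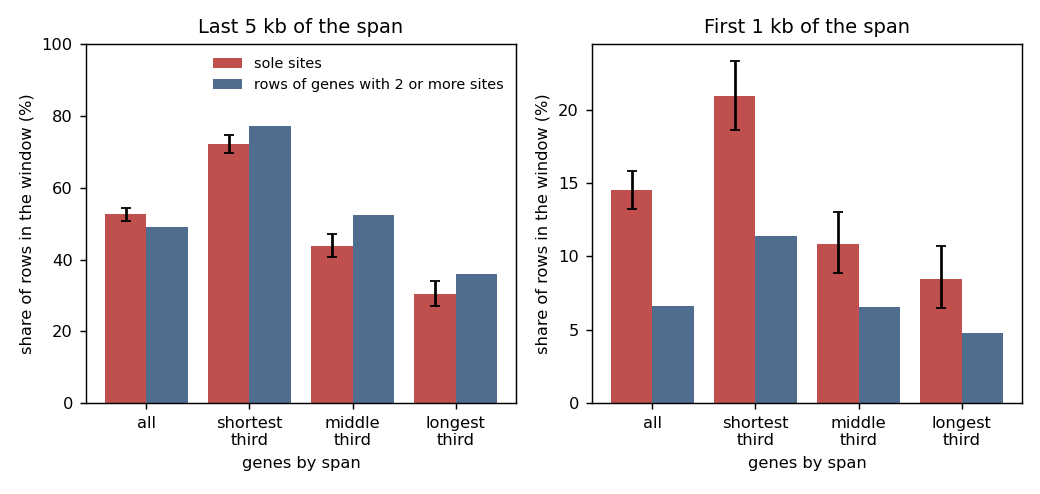
Share of sites (vertical axes, percent) in the last 5 kb (left) and the first 1 kb (right) of the gene span, for sole sites (red, exact 95% intervals) and sites of multi-site genes (blue), over all genes and in 3 equal groups by span (horizontal axes). Left, the red bar is higher over all genes (52.6% against 49.0%) and lower in each span group. Right, the red bar is higher in all 4 comparisons.

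Distances to annotated starts were finer. The RefSeq promoter table gave a start of the gene at or before 2316 sole sites, and sites without one were left out. Of these 2316 sites, 307 (13.3%) lay within 500 bases downstream of a start. Among 11146 such sites of multi-site genes 747 did (6.70%). Within 100 bases the shares were 3.32% and 1.52%, and within 1000 bases 16.7% and 8.48%. In bins of 50 bases the sole sites were densest from base 50 to 100, with 48 sites (2.07%), and stayed at or above 1.21% to base 350. Starts inside a span count as well as the first one, and genes with several starts can have sites near more than one.

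**Figure D5:**
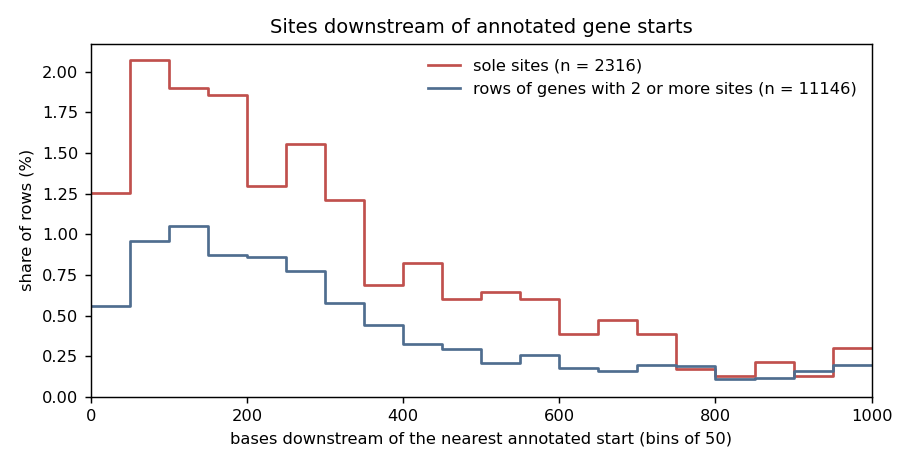
Share of sites (vertical axis, percent per bin of 50 bases) by distance downstream of the nearest annotated start of the gene (horizontal axis, bases), for 2316 sole sites (red) and 11146 sites of multi-site genes (blue). Both lines are highest in the first 300 bases, where the red line peaks at 2.07% and the blue line at 1.05%, and they come together beyond 750 bases.

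Several very long genes had their sole site beside a start. The site of Macrod2 lay 177 bases after a start and 1997 kb before the 3′ end. Prkg1, the cGMP-dependent kinase, had its site 139 bases after a start at 5.41%. Tenm2, a teneurin adhesion gene (194 bases, 5.13%), Epha6, an ephrin receptor (319 bases, 11.8%), Slc9a9, an endosomal proton exchanger (195 bases, 5%), and Dgki, a diacylglycerol kinase (243 bases, 4.49%), were alike in this. The start beside the Tenm2 site was an internal one, 293006 bases into the span. At least 100 kb before the 3′ end lay 94 sole sites with a start of their gene at or before them. Of these, 26 (27.7%) lay within 500 bases of a start, and of 669 such sites in multi-site genes 173 did (25.9%). Among these far sites the shares thus differed by less than the counting interval of the first (18.9% to 37.8%).

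Levels also varied with the place in the gene. Sole sites in the last 5 kb had a median of 6.25% (n = 1500), those in the first 1 kb and outside the last 5 kb 4.14% (n = 286), and those between 5% (n = 1068). The sites under 20% of multi-site genes stood at 3.85%, 2.67% and 2.67% in the same parts. Sole sites were thus the higher group in each part, by medians, and both groups were highest at the 3′ end.

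Finally, some sole sites may belong to a neighbouring or enclosing gene. Of the 2854 sole sites inside a matched span, 326 (11.4%, 10.3% to 12.6%) also lay inside the span of another gene, against 7.55% of the sites of multi-site genes. Spans on either strand were counted, and the 349 members with unmatched names were left out of this share. Another gene's listed site stood within 1 kb on the same strand for 15 sole sites (0.459%) and 15 sites of multi-site genes (0.105%). A site of this kind counts as sole by its gene name although a neighbouring site was listed under another name.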

How the data were processed

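Nuclear RNA of sorted neurons was sequenced in 2 libraries of 1 group. The authors called C-to-U sites with Bullseye, per the series description. STAR 2.7.5 and the build mm10 are named in the submitters' processing notes. The deposited editing level is a fraction per site (printed as percent), merged by the authors over both libraries. For Bullseye, its settings, control and coverage minimum were not given in the sources used here.

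From this list the sites per gene name were counted, and members were taken where a name occurred once at a fraction under 0.2. Site positions are 1-based. Names were matched to RefSeq genes of GRCm38.p6: 2907 members by symbol and 10 by synonym, with 349 unmatched. Medians carry order-statistic 95% intervals and shares exact Clopper-Pearson ones, which cover counting error over sites or genes only. No p-value was computed, because the members were chosen by these values and the list holds no replicate values. The steps were tested on simulated sites. Python 3.11.15, pandas 2.3.3, numpy 2.4.6 and scipy 1.17.1 were used.

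Members and gene lists were chosen with earlier results of these data known. Families follow symbol patterns, and antisense genes, kinases and assembly factors caught by a pattern were left out after values had been seen. Named genes are the 6 highest and 6 lowest members, the 3 just outside the limit, up to 4 per list by level (all of the cell type and m6A lists), the 5 longest, shortest and farthest from the 3′ end, up to 8 long noncoding RNAs and members with sequence. Long genes with a site beside a start, and some members of the other pathway lists, were named after their values were seen. Alternatives were the level limit, a minimum level, gene class, the comparison sites, window widths, span classes and consensus placement. Some genes and 1 gene list covered by these rules are not reported here.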

Additional observations from a re-analysis of the deposited data

How the results depend on the processing

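Of 40 alternative values for the main results, 22 stayed close to the reported value, 16 moved further and 2 changed sign. Close meant inside the reported value's own interval, or for counts inside a wider margin. Under that margin, 2423 sole sites (limit of 10%) and 2851 (sites under 5% dropped) were scored as close to 3266. Other window widths and level limits move a value by construction, so this tally does not measure stability. With a limit of 10% the median level of sole sites was 4.26%, and with no limit 6.06%. The median span was 24.8 kb for protein-coding genes only and 25.2 kb when sites under 2% were dropped before counting. The ratio of the median span of multi-site genes to that of sole-site genes, 1.88, was 1.34 against genes with exactly 2 sites and 3.19 against genes with 5 or more. The share in the last 5 kb was 37.6% in genes of 20 kb or more, and windows of 1 kb and 10 kb gave 19.6% and 66.8%. The difference in that share was 6.97 points for 10 kb, -5.83 points against the most edited site per gene and -6.24 points within 3 groups of like span; the last 2 are the reversals. The share in the first 1 kb was 9.69% in genes of 20 kb or more, 31.0% for 5 kb and 16.7% from any annotated start, and the difference was 4.16 points in genes of 20 kb or more. The consensus directly before the edited base was found at 0%. Lists above the share of all genes numbered 25 among protein-coding genes. For the shares of single lists, 198 of 204 alternatives stayed within the list's own interval. Many of them could hardly leave it, so the count does not measure stability. Counting protein-coding genes only leaves the members of most lists unchanged, and small lists have wide intervals (34.9% to 96.8% for the import machinery). With sites under 2% dropped, 41 of the 51 lists stayed on their side of the share of all genes. Membership itself depends on the lowest level kept: with sites under 2% dropped, 3369 genes had a sole site, of which 2914 were members before, and with sites under 5% dropped 2851, of which 1867 were. The cause of these changes was not tested beyond what the settings construct.

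No paired analysis was possible because both libraries belong to 1 group and the list holds 1 merged value per site. For the same reason no fit without 1 of the libraries was run. The list gives no coverage, so no level has a counting interval. Sites missed for want of reads and unedited bases cannot be told apart, so a single-site gene here is one with a single listed site.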
